A study of Mus musculus with 2 samples.

Results

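SR proteins and heterogeneous nuclear ribonucleoproteins (hnRNPs) are the RNA-binding proteins that help to decide which exons a cell keeps. The members described here were the protein-coding genes whose mouse symbol starts with Srsf and a number or with Hnrnp. The choice used symbols only and no measured value. It gave 31 of the 21474 protein-coding genes in the deposited tables, and of 43346 gene rows with Ensembl identifiers in all. There were 11 SR genes (Srsf1 to Srsf7, Srsf9, Srsf10, Srsf11 and Srsf12) and 20 hnRNP genes. Total RNA longer than 200 nt was measured in limb tissue of B6NCrl mouse embryos at embryonic day 10.5, with both sexes pooled and with no treatment or altered gene in the labels. The only group had 2 biological replicates, each of them a pool of whole limbs, taken from 69 embryos for replicate 1 and from 51 for replicate 2. The design held no contrast, so levels and transcript make-up were described and the libraries were set against each other without p-values.

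SR proteins carry RNA-recognition domains and a tail rich in arginine and serine that kinases phosphorylate. They mostly bind exons and help the spliceosome to recognise them. Many hnRNPs instead pack nascent RNA and often favour exon skipping, so the balance of the families shapes splicing in every tissue. Many genes of both families can also be spliced into transcripts with an early stop codon, which nonsense-mediated decay (NMD) removes, and several of the proteins are known to limit their own supply in that way.

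Expected counts, which are estimated reads per gene, summed to 40509328 in replicate 1 and 43983028 in replicate 2, with 3.89% and 3.45% of them in spike-in RNAs. TPM, the length-normalised level used for comparing genes, was taken as deposited. Of the marker lists for the tissue label, 6 of 6 limb mesenchyme genes reached a TPM of 1 in both libraries (summed TPM 656 and 781), as did 3 of 3 ectoderm genes (117 and 87.5) and 3 of 3 blood genes (8548 and 7500). Of 2 heart genes 1 reached that level (Myl7; the summed TPM of both was 6.80 and 5.82). None of 3 neural tube and none of 2 liver genes reached it in both. The 1 apical ridge gene (88.5 and 65.9) and 2 of 2 endothelium genes (36.3 and 40.9) did. After the TMM scaling used below, 2 of 6 limb mesenchyme genes were 1.5-fold higher in replicate 2. These were Pitx1 and Tbx4, with log2 differences (replicate 2 minus replicate 1) of 0.79 and 0.94. The list did not move as a whole: 3 of the 6 were above 0. Tbx5 (-0.26), Msx1 (-0.18) and Meis1 (-0.01) were below it. Of the 12254 genes compared below, 4.7% were 1.5-fold higher and 1.62% lower. By the same scaling 2 of 3 ectoderm and 1 of 3 blood genes were 1.5-fold lower, so the pools were not alike in these markers. In such bulk tissue, fewer cells of a type and less RNA per cell cannot be told apart. The part that tissue make-up played in any value here was not tested.

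All 31 members were expressed, meaning that both libraries gave a TPM of 1 or above, against 55.2% of protein-coding genes. Most were among the most abundant messages of the limb. The median of the mean TPM was 324 for SR genes and 286 for hnRNP genes, beside 21.3 for the 11853 expressed protein-coding genes. Both libraries gave a TPM of at least 100 for 26 members, 10 SR and 16 hnRNP, against 7.42% of protein-coding genes. The top 10% of expressed protein-coding genes, which began at a TPM of 138, held 24 members, and the top 5%, from 254, held 18. Together the members took 1.54% and 1.61% of protein-coding TPM in replicates 1 and 2. The SR genes supplied 0.502% and 0.522% and the hnRNP genes 1.04% and 1.08%. Of the 30 neighbouring pairs in the order of levels, 11 had library ranges that overlapped, so the order within those pairs was not set by these data.

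**Figure D1:**
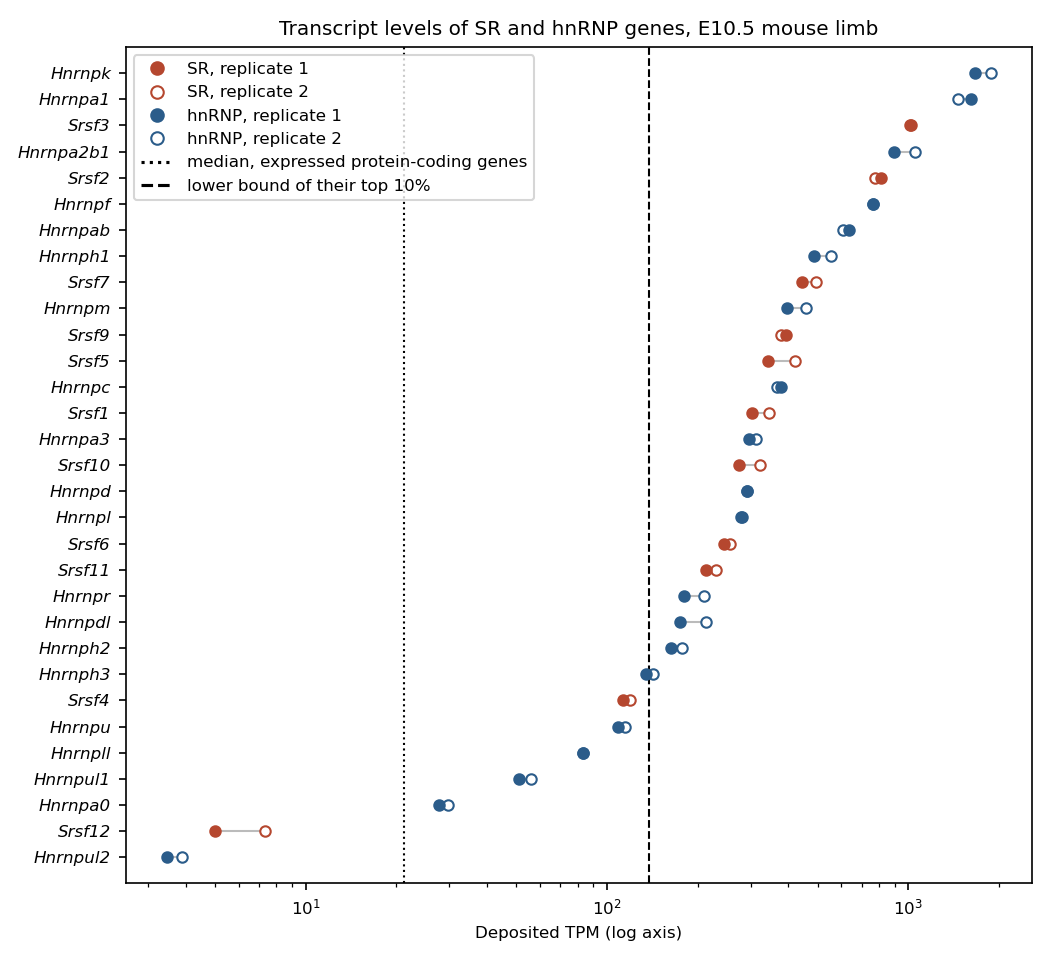
Deposited TPM (log axis) of each of the 31 members, ordered by the mean, with replicate 1 as filled and replicate 2 as open circles, SR genes in red and hnRNP genes in blue. The dotted line is the median of expressed protein-coding genes (21.3) and the dashed line the lower bound of their top 10% (138); 7 members lie below the dashed line by their mean, and Srsf12 and Hnrnpul2 lie below the dotted one.

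Among the SR genes, Srsf3, the smallest SR protein and also an adaptor for messenger RNA export, was highest. Its TPM was 1024 in replicate 1 and 1012 in replicate 2. Srsf2, a classical SR protein that binds exonic enhancers, followed at 811 and 777. Srsf7, an export adaptor with a zinc knuckle, had 443 and 495. The libraries differed by less than the gaps between these genes, so their order was the same in both.

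The next group was close together. Srsf9 had a TPM of 393 and 378, and Srsf5 had 342 and 419, so their ranges overlapped. Srsf1, the prototype of the family, had 302 and 346. Srsf10, which acts as a general repressor of splicing when dephosphorylated, had 273 and 321. The ranges of Srsf1 and Srsf10 overlapped in part, and Srsf1 was higher in both libraries.

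Srsf6 (TPM 244 and 255) and Srsf11 (213 and 230) came below them without overlap, followed by Srsf4 (113 and 119). Srsf4, Srsf5 and Srsf6 are related SR proteins with a second RNA-recognition domain. Srsf12, a relative of Srsf10, stood far below the other SR genes with a TPM of 5.02 and 7.34. That level rested on 272 and 427 counts, while Srsf4, the next lowest, had 6248 and 6816.

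Much of the SR output was not annotated as coding. The transcript tables give IsoPct, the percent of a gene's TPM that each transcript takes. A transcript was called noncoding when its class in GENCODE M21 was retained intron, NMD or processed transcript, the last being a spliced RNA with no assigned reading frame. By that measure 31.7% of summed SR TPM in replicate 1 and 32.1% in replicate 2 was in noncoding transcripts. The hnRNP genes had 13.6% and 14.9%, and all expressed protein-coding genes 11.6% and 12.0%. IsoPct weighs short transcripts more than counts do, and reads of a shared exon are divided by estimation, so these shares are estimates. The summed SR TPM was 4164 and 4362, and the single transcript Srsf3-205 had 504 and 484 of it. The class of Srsf3-205 is that of a 2110-nt transcript in M21, whereas 910 nt was quantified. The SR share therefore leans in part on 1 transcript of uncertain class.

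Srsf3 (gene ENSMUSG00000071172.8, chr17:29032628-29043373, plus strand, GRCm38) was the member with the largest noncoding share, 61.1% in replicate 1 and 61.6% in replicate 2. Its retained-intron transcript Srsf3-205 took 49.2% and 47.8% of the gene's TPM, ahead of the coding Srsf3-202 at 38.9% and 38.4%. By expected counts Srsf3-205 held only 24.1% and 22.9%. Its length was 910 nt in the tables and 2110 nt in M21, so its exons are not described here. The NMD transcript Srsf3-201, with a cassette exon of 456 nt, took 7.86% and 8.71%; its length also differed, 1919 nt against 2594 nt. The length of the coding Srsf3-202 differed from M21 as well.

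Srsf5 was next among SR genes with noncoding shares of 42.5% and 44%. Its transcript Srsf5-212, which keeps 2 introns, took 32.8% and 35.5%, beside 33.0% and 32.4% for the coding Srsf5-201. These transcripts therefore changed places between libraries. In expected counts Srsf5-212 held 48.2% and 51.6% of the gene, since it is long (2720 nt against 1527 nt).

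The noncoding share was 36.6% and 42.1% in Srsf11 and 37.1% and 38.1% in Srsf10. In Srsf10 it came from processed transcripts, led by Srsf10-207 at 17.9% and 19.1%, and it was only 8.93% and 9.50% of the gene's expected counts. The noncoding part of Srsf11 was led by the retained-intron transcript Srsf11-208, at 11.3% and 13.9%, while the coding Srsf11-202 led the gene. Srsf1 had a noncoding share of 23.7% and 26.4%, of which the retained-intron transcript Srsf1-203 made 16.1% and 17.7%.

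In Srsf6 and Srsf2 the noncoding part was chiefly of the NMD class. Srsf6-201 took 27.5% and 25.5% of Srsf6 TPM. It shares every other splice site with the coding Srsf6-203 and differs by 1 extra exon of 268 nt, whose inclusion was estimated at 27.8% and 25.9%. Srsf2-204 took 21.2% and 19.1% of Srsf2 TPM, and it ends translation at the stop codon of the leading coding transcript, with a further splice junction 113 nt downstream. The remaining SR genes were mostly coding. The noncoding share was 10.5% and 10.4% in Srsf4 and 1.65% and 3.21% in Srsf9. Srsf7 and Srsf12 had no noncoding transcript in the tables, and Srsf7 had 1 transcript there against 8 in M21.

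The exons that bring an early stop are shown because they define these NMD transcripts. Each run below is the start of an extra exon of an NMD transcript, read from the GENCODE M21 transcript sequences (GRCm38) on the transcribed strand, through the stop codon that M21 assigns, which is in capitals. The printed runs lie at chr2:162932815-162932966 for Srsf6 (plus strand), chr17:29039454-29039487 for Srsf3 (plus), chr3:158024209-158024231 for Srsf11 (minus) and chr17:80044976-80045022 for Hnrnpll (minus).
Srsf6-201: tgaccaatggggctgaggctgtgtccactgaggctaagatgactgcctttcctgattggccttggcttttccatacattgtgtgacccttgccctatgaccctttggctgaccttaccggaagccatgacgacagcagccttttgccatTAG
Srsf3-201: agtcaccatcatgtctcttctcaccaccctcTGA
Srsf11-206: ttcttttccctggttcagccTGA
Hnrnpll-203: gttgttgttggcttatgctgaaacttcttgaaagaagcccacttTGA
Each stop lies outside the exons of the gene's leading coding transcript. The last splice junction follows 534 nt after the stop in Srsf6-201, 548 nt after it in Srsf3-201, 456 nt in Srsf11-206 and 807 nt in Hnrnpll-203. The Srsf6 run is 152 nt long including its stop, and the Srsf11 run 23 nt.

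Counting the class alone, NMD transcripts made 5% or more of the gene's TPM in both libraries in 10 of the 28 members with at least 2 transcripts, 6 SR and 4 hnRNP, against 10.5% of such genes. Retained-intron transcripts passed the same level in 10 members, 4 SR and 6 hnRNP, against 34.0% of genes. The members' share for retained introns was thus near the background, and their share for NMD above it. Both shares depend on which genes have such transcripts annotated, and genes with an annotated NMD transcript were not compared alone. The median NMD share of SR genes was 6.62%, and that of hnRNP genes was 0, as for all expressed genes with at least 2 transcripts.

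The hnRNP genes covered a wider range of levels. Hnrnpk (gene ENSMUSG00000021546.13, chr13:58391142-58403343, minus strand), which binds cytosine-rich RNA through KH domains, was the highest member with a TPM of 1658 in replicate 1 and 1878 in replicate 2. Hnrnpa1, which favours exon skipping and competes with SR proteins for exons, had 1617 and 1463. These values ran in opposite directions between libraries but did not overlap. Hnrnpa2b1, a close relative that also takes part in RNA transport, had 899 and 1053.

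Hnrnpf, which binds runs of guanine, had a TPM of 764 and 761, and its relatives Hnrnph1, Hnrnph2 and Hnrnph3 had 487 and 553, 164 and 177, and 135 and 142. Hnrnpab, a CArG-box binding factor, had 637 and 606. Hnrnpm had 395 and 456. Hnrnpc, which binds uridine tracts of nascent RNA, had 377 and 366.

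Hnrnpd, known for binding AU-rich elements and for turning over messages, had 291 and 292, and its relative Hnrnpdl had 175 and 213. Hnrnpa3 had 296 and 311, and Hnrnpl, which binds CA repeats, had 279 and 281. Hnrnpr had 180 and 210. The values of Hnrnpr, Hnrnpdl and Hnrnph2 overlapped in turn.

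Hnrnpu, a scaffold-attachment factor that binds chromatin and RNA, had a TPM of 109 and 114, and Hnrnpll, a splicing regulator best known in lymphocytes, had 83.5 and 83.3. Hnrnpul1 (50.9 and 55.8) and Hnrnpa0 (27.8 and 29.6) followed. Hnrnpul2 was the lowest member at 3.46 and 3.88, from 519 and 606 counts.

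Some members have near-identical copies elsewhere, and reads shared with them were not measured. Pseudogene copies at 95% identity or more over at least 300 bases were found for 9 members, 46 copies in all, of which 37 had rows in the tables. Hnrnpa3 had 21 copies, and those with rows held counts equal to 18.3% and 21.8% of the gene's own counts. The same figure was 4.35% and 4.32% for Hnrnpk, 2.49% and 2.53% for Srsf3, and 1.02% and 1.21% for Hnrnpa1. Exons of 11 members overlapped another gene, 9 of them on the opposite strand, such as Srsf2 with Mettl23 (TPM 47.3 and 50.1). On the same strand, Hnrnpm shared 1169 exon bases with March2 (TPM 25.3 and 27.4), which strand cannot tell apart. No source used here says whether counting used strand, so reads in overlaps of either kind are uncertain, and Hnrnpa3 is uncertain as a level.

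Several hnRNP genes owe their protein forms to cassette exons, which are included or skipped whole. Inclusion was estimated as the IsoPct of transcripts with the exon over that of transcripts with or without it. In both libraries Hnrnpa1 mostly lacked its 159-nt exon, with inclusion of 17.2% and 18.4%. The 36-nt exon that tells the B1 form of Hnrnpa2b1 from the A2 form was at 43.1% and 41.8%. That exon occurs in 1 table transcript only, Hnrnpa2b1-203, which is 4086 nt long and held 65.9% and 64.7% of the gene's counts, so its estimate moves with that transcript's other exons.

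Hnrnpd has a pair of cassettes that define its known protein isoforms. The upstream one of 57 nt was included at 40.6% and 38.5%, and the downstream one of 147 nt at 61.5% and 60.9%. The largest part of the 57-nt estimate came from Hnrnpd-210, at 20.4% and 18.3% of the gene's TPM. That transcript is 493 nt long with incomplete ends and held 6.39% and 5.62% of the gene's counts. Hnrnpd-201, which also holds the exon, took 12.0% and 11.5% of TPM, so the 57-nt estimate leans on a partial transcript. The 141-nt exon of Hnrnpab was near even, at 51.6% and 49.4%, and the leading transcript of that gene changed between libraries. Hnrnpa3 included its 81-nt exon at 65.9% and 65.3%, and Hnrnpk its 72-nt exon at 79.5% and 76.6%. The 120-nt exon of Hnrnpa2b1 was at 85.5% and 87.2%, and the 54-nt exon of Hnrnpm at 90.9% and 92.1%.

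Hnrnph3 included an exon of 139 nt, whose length shifts the frame when skipped, at 76.2% and 71.2%. Among SR genes only the scarce Srsf12 had coding cassettes at over 1% inclusion, of 105 and 104 nt, both set by Srsf12-202 at 38.2% and 35.3%. That transcript held only 37.3 and 52.5 of the gene's 272 and 427 expected counts. For Hnrnpa1, Hnrnpab, Hnrnpd, Hnrnph3 and Hnrnpk, a table pair with and without the exon shares all other splice sites. For the exons of Hnrnpa2b1, Hnrnpa3, Hnrnpm and Srsf12 no such pair existed, and the table lengths of Hnrnpa1-202, Hnrnpa2b1-203, Hnrnpm-201 and the minor Hnrnpd-211 differ from M21.

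Cassettes of Hnrnpa2b1, Hnrnpa3, Hnrnpab and Hnrnpd are printed as the 4 coding cassettes searched that held at least 2 TANGG. That they share it therefore follows from how they were picked. Capitals mark TANGG on the transcribed strand, a motif picked after these sequences were seen. Sequences are from GENCODE M21 transcripts (GRCm38), at chr6:51464428-51464547 (Hnrnpa2b1, minus strand), chr2:75662845-75662925 (Hnrnpa3, plus), chr11:51601750-51601890 (Hnrnpab, minus) and chr5:99963731-99963877 (Hnrnpd, minus). The 36-nt exon of Hnrnpa2b1 at chr6:51467391-51467426 (minus), which holds no match, is given last.
Hnrnpa2b1 exon of 120 nt: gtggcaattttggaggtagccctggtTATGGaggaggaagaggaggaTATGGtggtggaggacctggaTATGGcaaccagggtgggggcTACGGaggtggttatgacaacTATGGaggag
Hnrnpa3 exon of 81 nt: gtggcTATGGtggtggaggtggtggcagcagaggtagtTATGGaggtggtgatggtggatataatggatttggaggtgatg
Hnrnpab exon of 141 nt: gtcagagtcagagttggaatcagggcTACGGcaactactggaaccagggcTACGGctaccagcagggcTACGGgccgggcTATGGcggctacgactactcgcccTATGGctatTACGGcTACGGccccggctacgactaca
Hnrnpd exon of 147 nt: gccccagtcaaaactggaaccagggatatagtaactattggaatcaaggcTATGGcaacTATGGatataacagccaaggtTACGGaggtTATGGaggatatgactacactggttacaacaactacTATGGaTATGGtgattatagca
Hnrnpa2b1 exon of 36 nt: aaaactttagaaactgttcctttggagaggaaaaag
TANGG occurred 7 times in the Hnrnpab exon, 6 times in that of Hnrnpd, 5 times in the 120-nt exon of Hnrnpa2b1 and 2 times in Hnrnpa3. Its complement, CCNTA on the printed strand, occurred 1 time in Hnrnpab and in none of the other 3. The 139-nt exon of Hnrnph3 and the 105-nt exon of Srsf12 held 1 each. The exons of Hnrnpk (72 nt), Hnrnpm (54 nt), Hnrnpd (57 nt) and Srsf12 (104 nt) held 0. Of 101273 internal exons of 30 to 300 nt in expressed protein-coding genes, 18.7% held at least 1 TANGG and 0.224% at least 3. The Hnrnpa3 exon does not reach 3, and these shares are no test of exons picked by the motif. All 20 matches in these 4 exons began at the first position of a codon. As background, TAT and TAC are tyrosine codons and GGN codons are glycine, and the tails of these proteins are rich in glycine. The match is a description of sequence, not of a site.

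**Figure D2:**
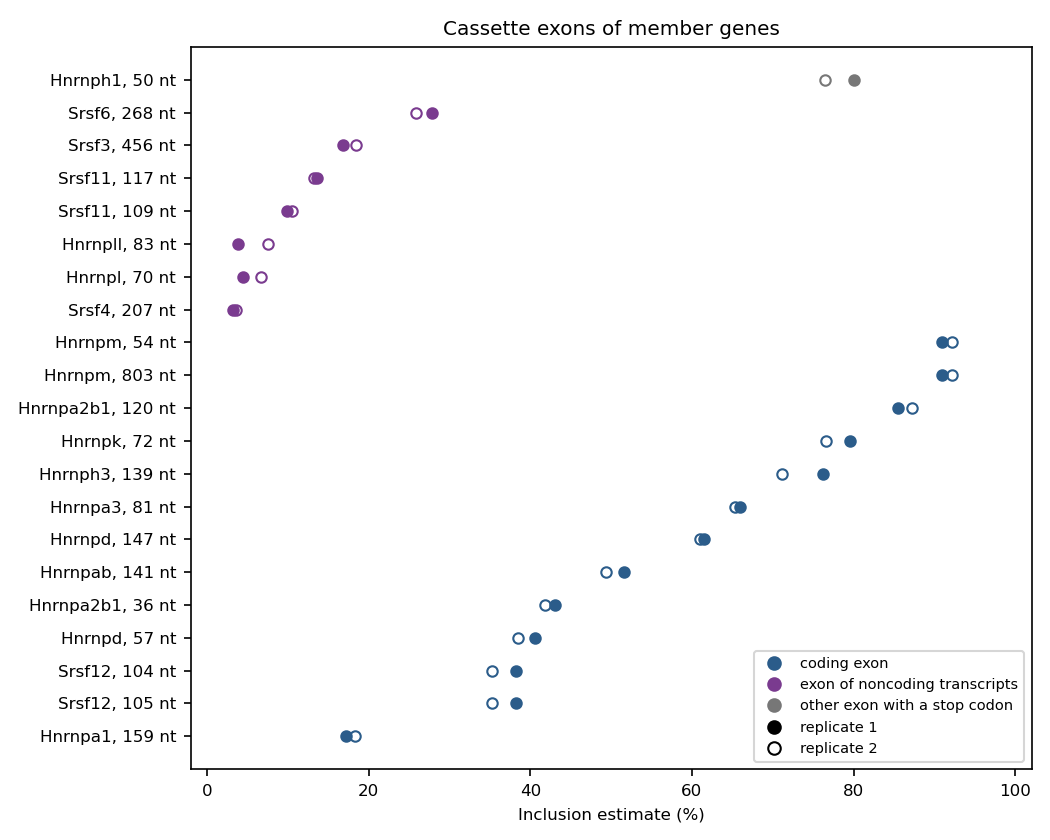
Inclusion estimate (%) of cassette exons in member genes, for coding cassettes and exons that hold an assigned stop codon, at an estimate of 1% or more; lengths are in nt, with filled circles for replicate 1 and open circles for replicate 2. Coding exons (blue) run from 17.2% in Hnrnpa1 to over 90% in Hnrnpm, exons found only in noncoding transcripts and holding a stop codon (purple) stay below 30%, 1 exon of Hnrnph1 that holds the stop of coding transcripts (grey) is near 80%, and the circles of each exon lie within 6 percentage points.

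The noncoding share varied widely among hnRNP genes. It was under 5% in both libraries in 11 of 20 genes, 9 of which had no noncoding transcript in the tables at all, and 20% or more in 6. Hnrnph1 was highest at 51.7% and 52.2%, all of it in processed transcripts, led by Hnrnph1-212 at 26.2% and 24.2%. Hnrnpl had 37.5% and 39.2%, led by the retained-intron transcript Hnrnpl-210 (21.8% and 20.6%). Hnrnpk had 37.8% and 37.7%, led by the retained-intron transcript Hnrnpk-217 (23.9% and 21.9%). Hnrnpk-217 is short, 874 nt, and held 10.5% and 9.79% of the gene's counts.

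Hnrnph3 had a noncoding share of 27.5% and 32.2%, split between the NMD transcript Hnrnph3-204 (10.8% and 13.2%) and retained introns. Hnrnpdl had 27.8% and 34.2%, the largest gap between libraries among the members, with Hnrnpdl-203 at 9.38% and 13.9%. Hnrnpu had 21.4% and 23.9%, but only 2.28% and 2.67% of its counts, since its coding transcript is 7640 nt long and Hnrnpu-202 is 673 nt. Hnrnpll (11.9% and 15.6%), Hnrnpd (11.5% and 14.6%) and Hnrnpr (12.6% and 10.3%) lay between. In Hnrnpd this was mostly the NMD transcript Hnrnpd-208, at 10.7% and 13.5%.

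**Figure D3:**
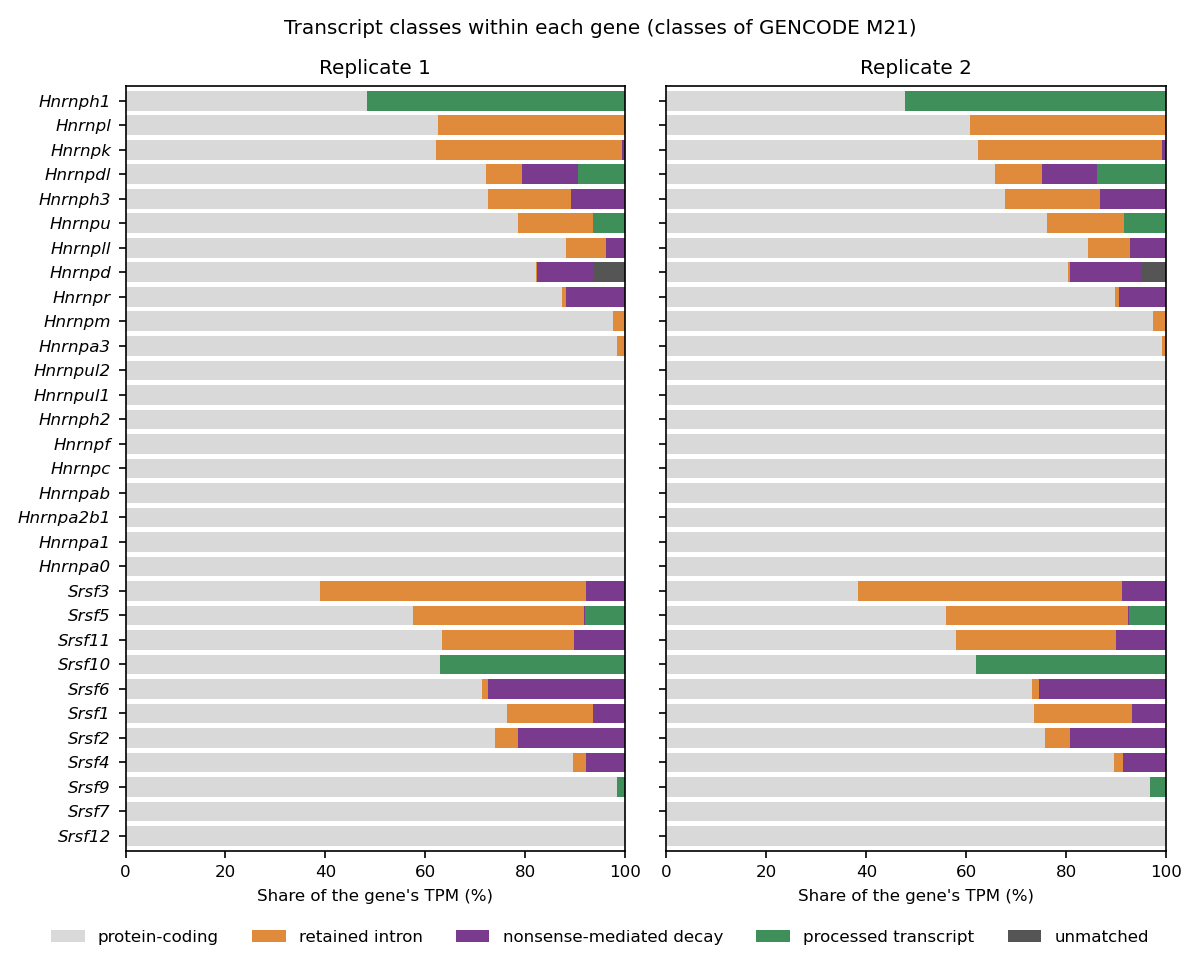
Share of each gene's TPM (%) by transcript class in replicate 1 and replicate 2, hnRNP genes above and SR genes below, each ordered by noncoding share; orange is retained intron, purple NMD, green processed transcript and black the unmatched transcript. The coding part (grey) is under 50% in Srsf3 and Hnrnph1 in both libraries, and 11 genes are wholly coding in the tables.

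Set beside all genes, the SR genes had a higher median noncoding share and the hnRNP genes one near the background. The noncoding share was 20% or more in both libraries in 13 of the 28 members with at least 2 transcripts, 7 SR and 6 hnRNP, against 29.5% of such genes. Members with 20% or more numbered 5 by expected counts and 5 without retained-intron transcripts, with only Hnrnph1 in both. The share of all genes at 20% or more was not computed by either measure, so these counts cannot be set against the 29.5%. Over genes with at least 2 transcripts, the median share was 26.4% for 10 SR genes and 6.95% for 18 hnRNP genes, beside 7.95% for 8741 expressed protein-coding genes. Over all members, 1-transcript genes included, it was 25.1% for SR genes and 1.85% for hnRNP genes. These medians depend on which genes have noncoding transcripts annotated. Over genes with at least 1 in the tables they were 27.7% for 9 SR genes, 22.6% for 11 hnRNP genes and 13.6% for 7004 genes. Among those, 77.8% of SR genes, 54.5% of hnRNP genes and 37.1% of all genes had a share of 20% or more in both libraries. Well-annotated genes had more as well: the median was 24.0% over the 1420 genes with 10 or more transcripts, while the members had a median of 6. In expected counts, over genes with at least 2 transcripts, the medians were 10.7% for SR genes, 1.57% for hnRNP genes and 3.26% for all.

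**Figure D4:**
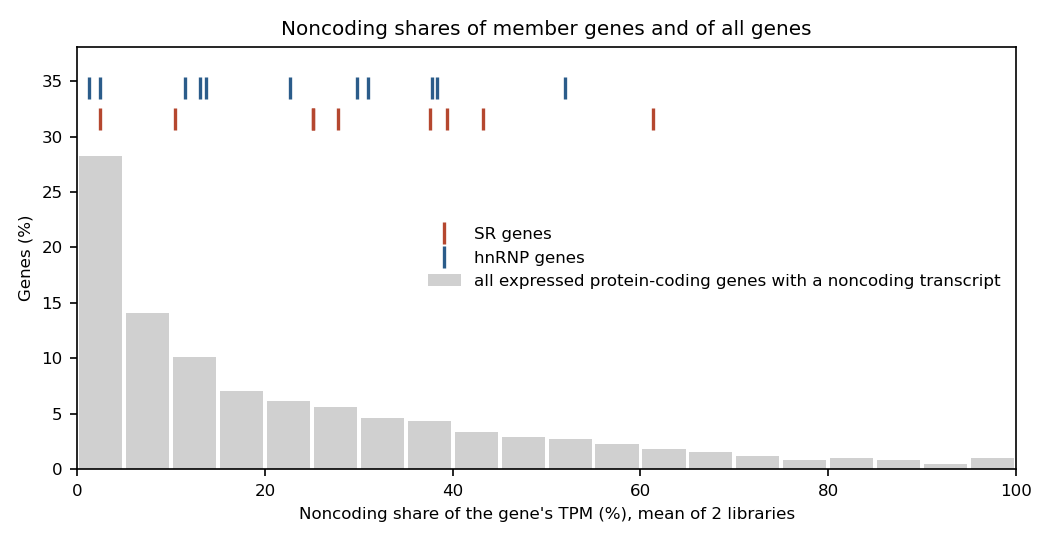
Noncoding share of the gene's TPM (%, mean of 2 libraries) for members with a noncoding transcript in the tables (red ticks, 9 SR genes; blue ticks, 11 hnRNP genes) above the distribution over 7004 expressed protein-coding genes (grey bars, percent of genes per 5-point bin). The lowest bin holds 28.2% of all genes and 3 members.

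A noncoding transcript led the gene in both libraries in 1 of the 28 members, Srsf3, against 7.68% of genes. The same transcript led in both libraries in 25 of the 28, against 91.8%. The 3 exceptions were Srsf5, Hnrnpab and Hnrnpa2b1, whose leading transcripts were within 5 percentage points of the next in each library. The noncoding share was higher in replicate 2 in 14 of the 28 and lower in 6, against 42.7% of genes that were higher and 33.0% that were lower. Retained-intron transcripts took 5.48% and 5.89% of the TPM of all expressed protein-coding genes, so that part of the libraries moved the same way. The part of this in the members' shares was not tested. Of 50 member cassettes whose transcripts covered at least 50% of the gene, 0 differed by 10 percentage points or more between libraries. By the same coverage rule 3.31% of 8156 cassettes did, in genes whose TPM was at least 10 in both. The members had no such TPM limit, so the scarce Srsf12 was included. With a share this low and 50 cassettes, the 0 does not set the members apart.

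After TMM scaling, no member was 1.5-fold higher or lower in replicate 2. Among the 12254 genes whose mean count was at least 100, 4.7% were 1.5-fold higher and 1.62% lower. With shares this low and so few members, that result does not set the members apart from other genes. Those genes were also not matched to the members by count. The members' mean counts ran from 349.5 in Srsf12 to 84247 in Hnrnpk. Srsf12 had the highest log2 difference (replicate 2 minus replicate 1), 0.45 with a 95% counting interval of 0.23 to 0.68. Hnrnpa1 had the lowest difference, -0.28 (-0.30 to -0.27), then Srsf9 at -0.21 (-0.25 to -0.17) and Hnrnpab at -0.19 (-0.22 to -0.17). After Srsf12, Srsf5 at 0.17 (0.14 to 0.20) and Hnrnpr at 0.14 (0.11 to 0.18) were highest. These intervals are exact binomial ones on rounded expected counts and cover counting error only, not variation between pools.

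Beyond counting error, 9 members were higher and 15 lower in replicate 2, and the interval of the other 7 included 0. Over all genes the intervals lay above 0 in 30.4% and below 0 in 32.8%. The difference was above 0 in 11 members and below 0 in 20, against 49.8% of genes above 0. The median log2 difference was -0.06 for SR genes and -0.03 for hnRNP genes, beside -0.0013 for all genes. The sign rests on the scaling: with counts scaled to the spike-in RNAs the median of all genes moved to 0.25, 30 of 31 members were above 0, and Srsf12 passed 1.5-fold. In deposited TPM the median of all genes was 0.13 and 23 members were above 0. Relative to all genes, the SR median was lower by 0.06 with TMM and with spike-in scaling, and by 0.02 in TPM, and the hnRNP median by 0.03, 0.03 and 0.05.

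**Figure D5:**
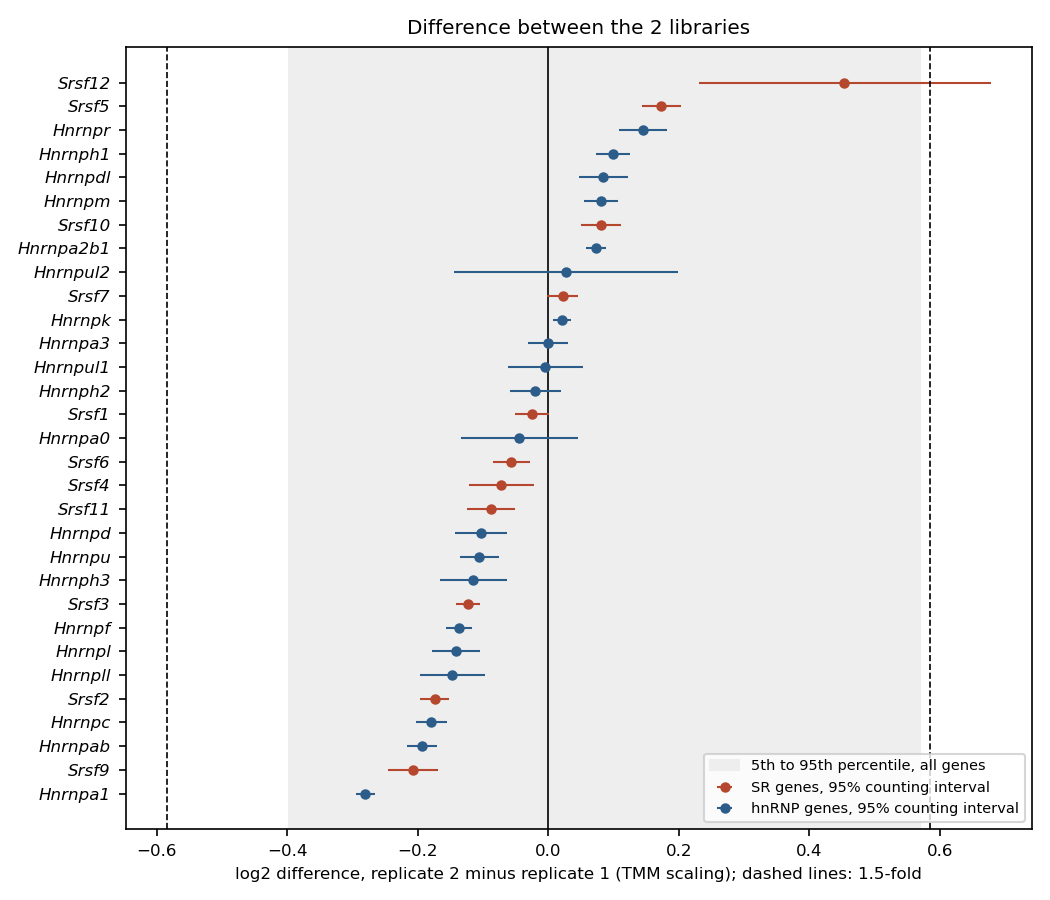
Log2 difference in counts (replicate 2 minus replicate 1, TMM scaling) of each member with its 95% counting interval, SR genes in red and hnRNP genes in blue. The grey band is the range from the 5th to the 95th percentile of 12254 genes (-0.40 to 0.57); every member's point lies in it and inside the dashed 1.5-fold lines, and the interval of Srsf12 reaches past the upper line.

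At the level of single transcripts the libraries could differ more. Srsf1-202, a coding form, had 264 expected counts in replicate 1 and 748 in replicate 2 (TPM 8.93 and 24.3), and it took 2.95% and 7.02% of Srsf1. It was singled out after its values were seen, and its part of the gene is small. The coding Srsf1-201 held 53.4% and 47.4%.

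The partners of these proteins were at more modest levels. Of the 10 kinases and import factors that act on SR proteins, 9 were expressed, with a median TPM of 41.5. Clk1, a nuclear kinase of SR proteins, had 93.1 and 129, Tnpo3, which carries SR proteins into the nucleus, had 93.8 and 105, and Clk4 had 84.2 and 106. Srpk3 was lowest at 1.36 and 0.93. Clk1 was also mostly noncoding in the tables, with shares of 71.3% and 76.9%.

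All 8 SR-related proteins were expressed, with a median TPM of 156. Tra2b, a splicing activator, had 411 and 422, Srrm2 had 408 and 407, and Rnps1, a part of the exon junction complex, had 379 and 354. Pnn was lowest at 77.2 and 87.0. All 7 hnRNP proteins that carry other symbols were expressed, with a median of 133: Pcbp1, a cytosine-binding relative of Hnrnpk, had 516 and 472, and Ptbp1, which represses exons through pyrimidine tracts, had 414 and 409. Raly, a relative of Hnrnpc, was lowest at 51.7 and 46.2.

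The factors that recognise splice sites (9 of 9 expressed) had a median TPM of 220. U2af1, which reads the end of the intron, had 420 and 378, Snrpa of the U1 particle 370 and 343, Puf60 346 and 352, and Sf3a1, the lowest, 87.7 and 84.5. The Sm proteins, the ring of the spliceosomal particles, were above the members' median of 297 in 5 of 7 genes. Snrpg had 992 and 915, Snrpb 880 and 805, Snrpe 823 and 780, and the lowest, Snrpd3, had 93.5 and 85.7. NMD factors were low by comparison (8 of 8 expressed, median 19.2), with Smg5 at 79.0 and 80.0, Upf3a at 38.9 and 43.3 and Upf2 at 8.29 and 9.65. None of the genes in these 6 lists that passed the count minimum was 1.5-fold higher or lower in replicate 2. All 7 Sm genes had a log2 difference below 0 with TMM scaling (median -0.27), where 49.8% of all genes were above 0 (median -0.0013). With spike-in scaling 5 of the 7 were below 0 (median -0.01), but the median of all genes was then 0.25. By TMM scaling 1 of 9 splice site factors was above 0 (median -0.195), against 7 of 9 kinases and import factors (median 0.092).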

How the data were processed

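Total RNA was measured in 2 libraries of 1 group. Per the sample text files deposited with the data, each library was quantified on its own from transcriptome alignments to mm10 with the GENCODE M4 annotation; no source used here names the aligner, the quantifier or the use of strand. The deposited tables hold expected counts, which the authors estimated per gene and transcript, TPM scaled by the authors over every row, and IsoPct, which in the deposited tables is the percent of its gene's TPM taken by a transcript.

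Tables were joined by Ensembl identifier without version to GENCODE M21 (GRCm38, the same assembly) for symbols, classes, coordinates and sequences; 42462 of 43346 gene rows and 211 of 212 member transcripts matched, and the 1 unmatched transcript stayed outside both classes. Of the 211, 192 had the same length in M21. Rows with numeric identifiers (26248 rows, 0.000170% and 0.000134% of counts) and spike-ins stayed out of library sizes.

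The members and all gene lists were chosen with earlier results of these data known. Named genes were every member, from each list the 3 highest and the lowest, and transcripts at a mean IsoPct of 10 or more; other transcripts, the coding cassettes and the motif were chosen after their values or sequences were seen. Expected counts were rounded and scaled with edgeR 4.0.16 (TMM), with DESeq2 1.42.0 size factors as an alternative, in R 4.3.3. A mean count of 100 was required for differences. The log2 difference and its 95% exact binomial interval, checked on simulated counts, were computed with Python 3.11.15, numpy 2.4.6, pandas 2.3.3 and scipy 1.17.1. The pseudogene copies were found with minimap2 2.31, and matplotlib 3.10.9 drew the figures. With 1 library on each side no p-value was computed. Other scalings, posterior mean TPM, other share measures and leaving out each library were tried as alternatives. Certain genes and sequences that these rules name are not reported here.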

Additional observations from a re-analysis of the deposited data

How the results depend on the processing

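No paired analysis was possible because the series has 1 group. Levels held: 31 members were expressed and 26 were at a TPM of 100 or more with posterior mean TPM and with either library alone, and the median of hnRNP genes was 281 TPM with posterior means. Without 1 replicate, the SR median ranged from 302 to 346 TPM and the hnRNP median from 285 to 287. Median log2 differences of SR and hnRNP genes became 0.015 and 0.040 with total counts, 0.20 and 0.22 with spike-in counts and 0.11 and 0.087 in deposited TPM, while the median of all genes moved to 0.07, 0.25 and 0.13; 1 member (Srsf12) passed 1.5-fold with spike-in counts. DESeq2 size factors and no count filter moved no member out of its interval.

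Noncoding medians over all 11 SR and 20 hnRNP genes fell to 9.22% and 0.480% as shares of expected counts and to 12.2% and 0 without retained-intron transcripts, and 5 members had 20% or more in each case, with only Hnrnph1 in both; without retained introns 0 were led by a noncoding transcript. By counts the 1 member led by a noncoding transcript was Srsf5 and not Srsf3. The share of all genes at 20% or more was not computed by counts or without retained introns. Members at a TPM of 10 or more gave 26.4% and 2.46%. Of 2 alternatives chosen after seeing the data, genes with a noncoding transcript gave 27.7% and 22.6%, and transcripts of unchanged length gave 7.0% for hnRNP genes. The latter left out every Srsf3 transcript with counts, Srsf3-205 and the coding Srsf3-202 among them, so Srsf3 dropped out of that setting. It also left out the coding Srsf11-202, and Srsf11 was then the 1 member led by a noncoding transcript. Without 1 replicate, the SR median ranged from 26.0% to 26.4%, the hnRNP median from 1.71% to 1.99%, and members led by a noncoding transcript from 1 to 2 (Srsf5 joins without replicate 1). The causes were not tested.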
